A study of Mus musculus with 6 samples.

Results

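The genes described here are 10 regulators of cellular energy balance and mitochondrial biogenesis, taken by name: the AMP-activated protein kinase (AMPK) subunit genes Prkaa1, Prkaa2, Prkab1 and Prkag1, the upstream kinase gene Stk11, the sirtuin genes Sirt1 and Sirt3, the coactivator gene Ppargc1a, the nuclear receptor gene Esrra and the mitochondrial DNA factor gene Tfam. All 10 symbols were matched to Entrez gene IDs among the 27179 IDs of the count files. Their RNA was measured by RNA-seq of total RNA, after depletion of ribosomal RNA, in satellite cells sorted by flow cytometry from the muscle of WT C57Bl/6N mice. One group of 3 libraries came from mice on a high-fat diet and the other group of 3 from mice on a chow diet, a design that compares satellite cells of obese and lean mice. Genotype, strain background, tissue and cell type were the same in both groups. The labels used here give neither the age of the mice nor the length of feeding, and they do not say whether replicates came from separate animals, so that the p-values cover the variation from library to library, some of which may be technical.

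AMPK is a kinase of 3 subunits that is switched on when cellular AMP and ADP rise and that turns metabolism from synthesis to fuel oxidation. Sirtuins are deacylases that need NAD+ and so read the redox state of the cell. Both act on PGC-1alpha, the product of Ppargc1a, which coactivates the estrogen-related receptor ERRalpha (Esrra) and the nuclear respiratory factors, and these in turn drive Tfam, whose product packages mitochondrial DNA and helps to start its transcription. Satellite cells are the stem cells of skeletal muscle; in mice, SIRT1, AMPK and its activating kinase LKB1 (Stk11) have been tied to their metabolic shift on leaving quiescence and to their self-renewal.

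The 250 bases upstream of the annotated start are shown for 4 of the genes. Tfam was the only regulator whose values did not overlap between the diets, and Esrra is the partner of PGC-1alpha. Sirt1 was the most abundant of the regulators per kilobase of longest transcript. Ppargc1a had the lowest level on that scale and the window poorest in CpG. The sequences are from RefSeq (GRCm38.p6), run 5′ to 3′ towards the start, and all 4 genes lie on the minus strand. For Tfam, Esrra and Ppargc1a the start used lies inside the annotated gene, which reaches to 71238328, 6922048 and 52115853. Their windows lie wholly or mostly within the gene, and starts further upstream were not searched. Capitals mark matches to the motifs described after them.
Tfam, chr10:71238045-71238294: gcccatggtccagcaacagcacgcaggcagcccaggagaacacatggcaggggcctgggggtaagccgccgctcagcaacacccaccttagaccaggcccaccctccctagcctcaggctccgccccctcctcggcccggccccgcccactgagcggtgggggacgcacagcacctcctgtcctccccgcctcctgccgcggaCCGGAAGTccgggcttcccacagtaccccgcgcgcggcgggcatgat
Esrra, chr19:6921809-6922058: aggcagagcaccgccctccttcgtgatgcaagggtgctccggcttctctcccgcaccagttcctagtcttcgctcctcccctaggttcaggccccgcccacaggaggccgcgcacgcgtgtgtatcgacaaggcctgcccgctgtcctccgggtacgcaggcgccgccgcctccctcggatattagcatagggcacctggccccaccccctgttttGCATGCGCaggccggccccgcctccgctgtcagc
Sirt1, chr10:63339036-63339285: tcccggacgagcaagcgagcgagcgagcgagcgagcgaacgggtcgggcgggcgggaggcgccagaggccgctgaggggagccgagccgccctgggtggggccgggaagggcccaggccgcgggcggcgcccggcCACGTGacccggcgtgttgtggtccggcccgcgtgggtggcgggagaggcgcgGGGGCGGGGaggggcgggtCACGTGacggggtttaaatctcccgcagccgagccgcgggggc
Ppargc1a, chr5:51567726-51567975: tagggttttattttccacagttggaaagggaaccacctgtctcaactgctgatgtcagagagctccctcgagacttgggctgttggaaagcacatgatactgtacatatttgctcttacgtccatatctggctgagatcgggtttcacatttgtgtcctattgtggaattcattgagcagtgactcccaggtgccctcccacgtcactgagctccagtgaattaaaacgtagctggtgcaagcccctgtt

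The RefSeq table held 11 promoters of the 10 genes, 2 of them for Sirt3, among 32851 promoters in all. In the Tfam window, CCGGAAGT, the ETS-type site bound by GABP (nuclear respiratory factor 2), stood 47 to 40 bases before the start used. The same site occurred in reverse, as ACTTCCGG, at 1 Sirt3 promoter, so that 2 of the 11 promoters held it, against 2.88% of all promoters. The Esrra window held GCATGCGC, the centre of the site of nuclear respiratory factor 1 (GCGCATGC in the other direction), 34 to 27 bases before the start, which 2.26% of all promoters hold. The Sirt1 window held 2 canonical E-boxes (CACGTG, in 6.02% of all promoters) and 1 GC box (GGGGCGGGG, in 10.4%), without overlap between them. Neither the ERR element TNAAGGTCA (1.14% of all promoters) nor the cyclic AMP response element TGACGTCA (1.55%) was written in any of the 11 windows. Both strands were searched, and a match is a stretch of letters, not a shown binding site.

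The regulators' promoters were mostly rich in G and C. Their median GC content was 65.6%, against 52.4% over all promoters, and the median ratio of observed to expected CpG was 0.863, against 0.374. Ppargc1a stood apart among them, with 48.0% GC and a CpG ratio of 0.347 at the internal start used. The next lowest CpG ratio, 0.611, was that of Tfam. The Sirt1 and Prkaa1 windows had 79.2% and 85.2% GC.

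None of the 10 regulators passed the test between the diets. The test was edgeR's quasi-likelihood F test over 13202 genes with enough reads, two-sided, with Benjamini-Hochberg adjustment and a threshold of 0.05 on the adjusted p. All 10 had enough reads to be tested. Of all tested genes, 34 (0.258%) passed, so that a call among 10 genes would be rare at the background rate. The lowest adjusted p of a regulator was 0.961, and 0 of 10 had an unadjusted p under 0.05, against 7.65% of all genes. DESeq2 and limma-voom, run as alternatives, also called 0 of 10. The log2 fold changes (high-fat diet over chow) were positive for 5 regulators and negative for 5, and their median was -0.07, with -0.01 for the 13202 genes. The values of the diets did not overlap for 1 of 10, Tfam, against 15.3% of all genes.

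**Figure D1:**
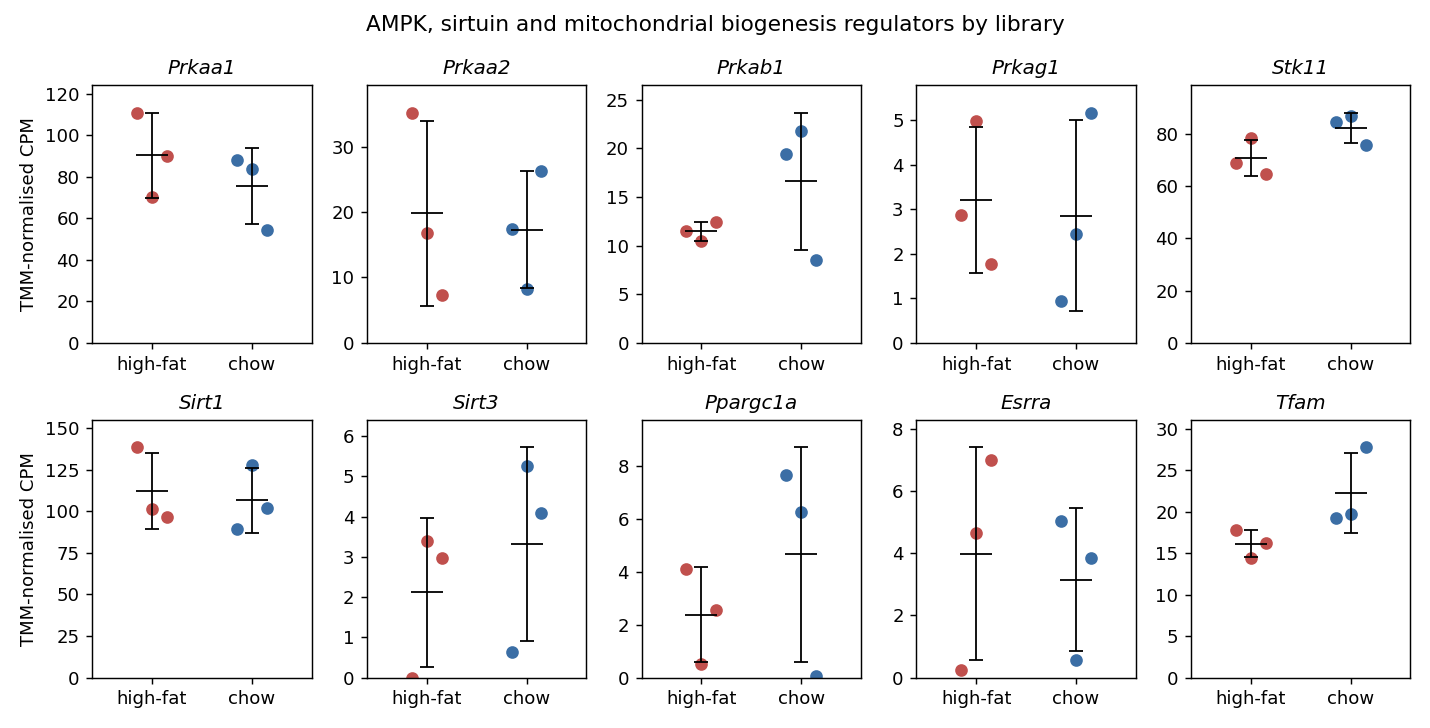
Level of each of the 10 regulators in TMM-normalised CPM (counts scaled to a common library size; linear axes from 0) in the 3 high-fat diet libraries (red, left) and the 3 chow libraries (blue, right); dashes and bars give the mean and SD. Tfam is the only gene whose red points all lie below its blue points.

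Depth was alike in the 6 libraries, with 14930394 to 18217818 counts each. In a principal component analysis of the 500 genes of highest variance, high-fat diet library 1 (-43.1) and chow library 3 (60.8) stood apart on component 1 from the other 4 (-12.3 to 6.64). On component 2 both lay on the same side, at 52.0 and 29.6, against -29.1 to -13.5 for the other 4. These 2 libraries also had the fewest genes with any read, 13879 and 13655, against 14939 to 15467 in the other 4. The sorted cells carried satellite cell markers: 10 of 10 were detected, with Sdc4, the most abundant, at 1480 to 1996 CPM in the high-fat diet libraries and 1680 to 2567 CPM in the chow libraries. Pax7, the defining transcription factor of these cells, was at 171 to 283 CPM under high-fat feeding and 370 to 430 CPM under chow, and did not pass in edgeR (adjusted p = 0.180). Of the 10 satellite cell markers 0 passed, and 5 had positive and 5 negative log2 fold changes. The diets did not overlap for 3 of 10, against 15.3% of all tested genes, with Pax7 lower and Itga7 and Chrdl2 higher under high-fat feeding. Mature myofibres are known to express Prkaa2 and Ppargc1a, and their 11 markers summed to 29.6 to 39.0 CPM under high-fat feeding and 39.9 to 44.5 CPM under chow, and their most abundant member, Atp2a1, lay between 6.53 and 28.8 CPM in the 6 libraries. Neither Pax7 nor these sums overlapped between the diets, and their part in the levels below was not tested. Of the 4 myofibre markers tested, only Tnnt3 did not overlap, with means of 3.54 CPM under high-fat feeding and 11.3 CPM under chow. Atp2a1 (16.2 against 17.2 CPM) and Acta1 (5.36 against 5.82 CPM) had closer means in the same order. Myh4 had the higher mean under high-fat feeding (5.93 against 4.27 CPM). Of the other cell types, fibro-adipogenic markers summed highest, to 467 to 659 CPM under high-fat feeding and 358 to 506 CPM under chow. Most of that sum was Dpt (198 to 382 CPM over the 6 libraries) and Dcn (103 to 191 CPM). Pdgfra was at 0 to 8.28 CPM, Ly6a at 3.18 to 11.4, Pi16 at 0 to 14.9, Lum at 1.13 to 26.9 and Col1a1 at 18.3 to 30.0 CPM. Ckm, a defining myofibre transcript, was at no more than 0.440 CPM in any library. In such bulk samples, fewer cells of a type and less RNA per cell cannot be told apart.

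The catalytic subunit of AMPK was mainly Prkaa1. Prkaa1 (chromosome 15, 5143861 to 5181899, GRCm38) encodes the alpha-1 isoform, which is found in most tissues. It was at 111, 70.2 and 90.2 CPM in high-fat diet libraries 1, 2 and 3, and at 88.3, 83.7 and 54.6 CPM in chow libraries 1, 2 and 3. The groups overlapped, and the highest and the lowest value belonged to the 2 libraries that stood apart. The log2 fold change was 0.26 (SE 0.27, 95% interval -0.32 to 0.84, adjusted p = 0.961), and without those 2 libraries it was -0.09. Prkaa2 (chromosome 4, 105029649 to 105109898) encodes the alpha-2 isoform, known as the main one of adult skeletal muscle fibres. It was at 35.2, 16.8 and 7.34 CPM under high-fat feeding, and at 17.5, 8.28 and 26.2 CPM under chow. Within the high-fat diet group alone its values differed 4.80-fold, and the groups overlapped fully, with a log2 fold change of 0.19 (SE 0.64, 95% interval -1.19 to 1.57). The value became -0.51 without high-fat diet library 1 and -0.14 without chow library 2.

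Levels of different genes are compared per kilobase of the longest annotated transcript. On that scale Prkaa1 made up 84.4%, 87.7% and 95.5% of the alpha subunit RNA in the high-fat diet libraries and 89.7%, 94.5% and 78.1% in the chow libraries. The mean share was 89.2% ± 5.69 under high-fat feeding and 87.4% ± 8.44 under chow (SD, n = 3 each), a difference of 1.76 percentage points that was smaller than either SD (exact two-sided permutation test, p = 0.900, where 0.1 is the smallest p that 3 against 3 libraries allow). The difference was -1.38 without high-fat diet library 3 and -2.91 without chow library 3.

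The regulatory subunits were led by a gene outside the 10 regulators. Prkab1 (chromosome 5, 116013586 to 116024503) encodes beta-1, which bridges the alpha and gamma subunits and binds glycogen. It was at 11.5, 10.5 and 12.4 CPM under high-fat feeding, and at 19.5, 21.8 and 8.56 CPM under chow. Chow library 3 was the lowest of all 6, so that the groups overlapped although the other 2 chow libraries lay above every high-fat diet library. Its log2 fold change was -0.53 (SE 0.61, 95% interval -1.85 to 0.78), and it was -0.84 without chow library 3. Prkab2, the other beta isoform gene, was at 310, 532 and 414 CPM under high-fat feeding and at 462, 554 and 598 CPM under chow (log2 fold change -0.36, SE 0.20, edgeR adjusted p = 0.754), and its log2 fold change was -0.09 without both libraries that stood apart. Per kilobase, Prkab1 made up only 6.46% ± 1.85 of beta subunit RNA under high-fat feeding and 7.03% ± 3.23 under chow (SD, n = 3 each), and the difference of -0.57 percentage points was within these SDs (exact two-sided permutation test, p = 0.800). Its sign turned when high-fat diet library 2, chow library 1 or chow library 2 was left out, with values of 0.40, 0.50 and 0.22.

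The gamma subunit, which binds AMP, ADP and ATP, differed between single libraries. Prkag1 (chromosome 15, 98812797 to 98831508) had only 44, 78 and 33 reads in the high-fat diet libraries and 15, 42 and 90 reads in the chow libraries. These are 2.86, 4.99 and 1.78 CPM under high-fat feeding and 0.942, 2.45 and 5.17 CPM under chow, and the groups overlapped fully (log2 fold change 0.17, SE 1.48). Without single libraries this value ran from -0.30 (without high-fat diet library 2) to 0.92 (without chow library 3). Prkag2 was at 0.455, 29.7 and 14.9 CPM under high-fat feeding and at 14.4, 24.0 and 12.5 CPM under chow. In high-fat diet library 1 Prkag1 thus took 92.7% of gamma subunit RNA per kilobase, whereas it took 11.6% to 45.5% in the other 5 libraries. The mean shares, 45.8% ± 40.7 under high-fat feeding and 24.7% ± 18.2 under chow (SD, n = 3 each), differed by 21.0 percentage points (exact two-sided permutation test, p = 0.5). Without high-fat diet library 1 the mean share under high-fat feeding was 22.3%, and the difference from chow was -2.42 percentage points. After adjustment over the 3 subunit shares, p was 0.900 for each. Prkag3, an isoform gene known from skeletal muscle fibres, had 0 reads in all 6 libraries, where a count of 3 would be at most 0.201 CPM. Exons of Prkag1 share 43.7% of their bases with the antisense gene B130046B21Rik, and the counting's strand setting is not given in the sources used here, so its reads are uncertain. Smaller exon overlaps with neighbours, from 1.22% (Sirt1) to 5.73% (Sirt3 with Psmd13) and 6.998% (Sirt3 with Ric8a) of a gene's exon bases, exist for Stk11, Sirt1, Sirt3 and Esrra, and none was found for the other 5 regulators.

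Stk11 (chromosome 10, 80115767 to 80130679) encodes LKB1, the kinase that phosphorylates the activation loop of the alpha subunit. It was among the steadiest of the regulators, at 68.8, 78.3 and 64.8 CPM under high-fat feeding and at 84.4, 86.7 and 75.6 CPM under chow. Only high-fat diet library 2 lay above the lowest chow library. The means were 70.6 ± 6.97 CPM under high-fat feeding and 82.2 ± 5.88 CPM under chow (SD, n = 3 each). In log2 terms the difference was -0.22 (SE 0.24, adjusted p = 0.961), and its 95% interval of -0.73 to 0.29 lay within a 2-fold change in either direction. Leaving out any 1 of the 6 libraries kept the sign negative.

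Sirt1 (chromosome 10, 63319005 to 63339035) encodes a nuclear deacetylase of histones, of PGC-1alpha and of other transcription regulators. It was at 138, 101 and 96.5 CPM under high-fat feeding, and at 89.6, 128 and 102 CPM under chow. The groups covered nearly the same range, with means of 112 ± 22.9 CPM under high-fat feeding and 107 ± 19.6 CPM under chow (SD, n = 3 each). As a log2 fold change this was 0.07 (SE 0.23, 95% interval -0.43 to 0.57), the smallest of the 10 in absolute size, and its sign turned when high-fat diet library 1 (-0.10) or chow library 1 (-0.03) was left out. Sirt3 (chromosome 7, 140863663 to 140882309) encodes the main deacetylase of the mitochondrial matrix. It had 0, 53 and 55 reads under high-fat feeding and 10, 90 and 71 reads under chow, that is 0, 3.39 and 2.97 CPM under high-fat feeding and 0.628, 5.25 and 4.08 CPM under chow. The 0 in high-fat diet library 1 allows a level of up to 0.201 CPM, counting error only. Each diet had 1 library far below the other 2, and the log2 fold change of -0.64 had an SE of 1.82. It was -0.05 without high-fat diet library 1.

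Per kilobase, Sirt1 was at 25.3 ± 5.18 under high-fat feeding and 24.1 ± 4.43 under chow, and the cytoplasmic sirtuin gene Sirt2, outside the 10, at 36.9 ± 3.54 under high-fat feeding and 26.2 ± 6.27 under chow (CPM per kb, SD, n = 3 each). The other 5 sirtuin genes, Sirt3 among them, lay at or below 2.47 CPM per kb in either group mean. The 2 genes with the smallest p among the sirtuins outside the 10 were Sirt5 and Sirt2. Sirt5, a mitochondrial desuccinylase gene, was at 2.21, 8.38 and 3.07 CPM under high-fat feeding and at 0, 0.408 and 0.459 CPM under chow. Its diets did not overlap, but the counts were few (log2 fold change 3.94, SE 1.97, edgeR adjusted p = 0.698). Sirt2 was at 86.6, 75.8 and 72.2 CPM under high-fat feeding and at 43.3, 69.6 and 53.7 CPM under chow (log2 fold change 0.49, SE 0.27, edgeR adjusted p = 0.754). Sirt2 and Sirt4 did not overlap between the diets either, Sirt2 being higher and Sirt4 lower under high-fat feeding. With Sirt5 these were 3 of the 5 sirtuins outside the 10, against 15.3% of all tested genes.

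Ppargc1a and Esrra had few reads, spread unevenly over the libraries. Ppargc1a (chromosome 5, 51454249 to 52115853) had 63, 8 and 47 reads under high-fat feeding and 122, 107 and 1 reads under chow. In CPM these were 4.10, 0.512 and 2.54 under high-fat feeding and 7.66, 6.24 and 0.0574 under chow. Chow library 3 alone thus held 1 read where the other 2 chow libraries held over 100 each, a 133-fold span in CPM within 1 group. The log2 fold change was -0.96 (SE 1.64, 95% interval -4.48 to 2.55, adjusted p = 0.995). Esrra (chromosome 19, 6910977 to 6922048) was at 0.260, 4.67 and 7.01 CPM under high-fat feeding and at 5.02, 0.583 and 3.85 CPM under chow. Again 1 library of each diet was far below the other 2, and the groups overlapped fully (log2 fold change 0.34, SE 1.53, 95% interval -2.95 to 3.62). With 1 library left out, the value for Ppargc1a ran from -1.59 (without high-fat diet library 1) to -0.40 (without chow library 1), and was -1.54 without chow library 3. For Esrra it ran from -0.35 (without high-fat diet library 3) to 0.90 (without high-fat diet library 1). Without both libraries that stood apart, it was -2.17 for Ppargc1a and 1.07 for Esrra. For neither gene could a difference of several-fold be detected or bounded at this spread between libraries. Pprc1, which encodes the related coactivator PRC and lies outside the 10, was at 41.3 ± 4.76 CPM per kb under high-fat feeding and 48.5 ± 4.70 under chow, whereas the values were 0.368 ± 0.278 under high-fat feeding and 0.720 ± 0.625 under chow for Ppargc1a (SD, n = 3 each).

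Tfam (chromosome 10, 71225468 to 71238328) encodes the protein that packages mitochondrial DNA and helps to start its transcription. It was at 17.8, 14.5 and 16.2 CPM in the high-fat diet libraries and at 19.2, 19.7 and 27.7 CPM in the chow libraries. All 3 high-fat diet values lay below all 3 chow values, the nearest being 17.8 CPM in high-fat diet library 1 and 19.2 CPM in chow library 1. The means were 16.1 ± 1.65 CPM under high-fat feeding and 22.2 ± 4.78 CPM under chow (SD, n = 3 each). The difference did not pass (log2 fold change -0.46, SE 0.49, 95% interval -1.50 to 0.58, adjusted p = 0.961). With any 1 of the 6 libraries left out the value ran from -0.55 to -0.27. Its sign could not turn there, since the values of the diets did not overlap. The 13 messenger RNAs that mitochondrial DNA itself encodes summed to 48425, 65943 and 62678 CPM under high-fat feeding and to 47458, 49421 and 50583 CPM under chow. High-fat diet library 1 lay within the chow range, and none of the 13 was called by edgeR. In that test 5 of 13 (38.5%) reached an unadjusted p under 0.05, against 7.65% of all tested genes. All 13 log2 fold changes were positive (median 0.28), as were 6536 of all 13202 tested. The diets did not overlap for 3 of the 13, all higher under high-fat feeding, against 15.3% of all tested genes. The 13 share the mitochondrial genome and the same 6 libraries. They are not independent observations, and these shares are a description.

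**Figure D2:**
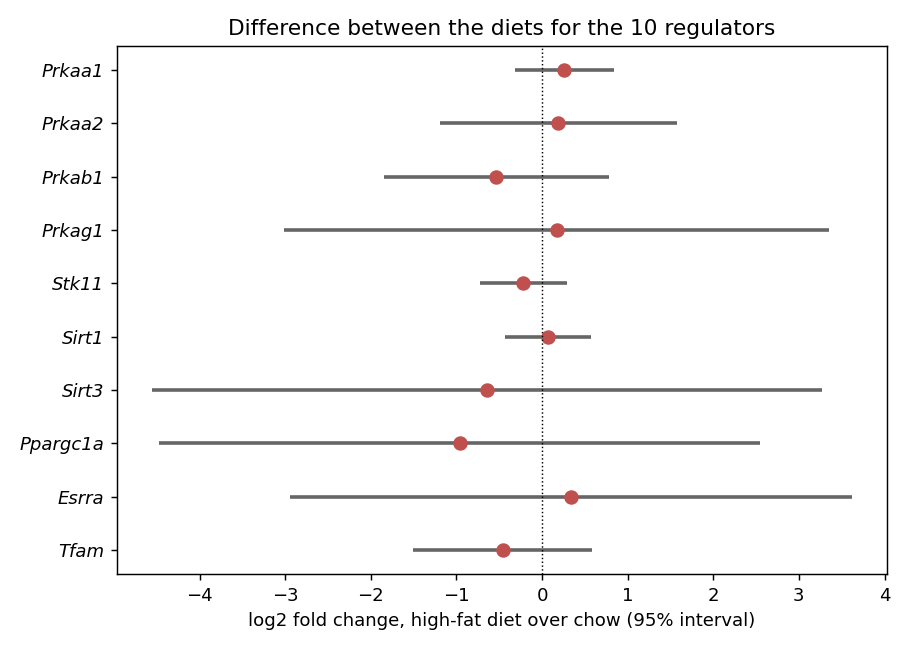
Log2 fold change of the 10 regulators, high-fat diet over chow, with 95% intervals from edgeR's quasi-likelihood fit (red points and grey bars; the dotted line marks no difference). Each interval includes 0; the bars of Stk11, Sirt1 and Prkaa1 are short, and those of Prkag1, Sirt3, Ppargc1a and Esrra span more than 6 log2 units.

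Without both libraries that stood apart, the log2 fold change of Stk11 was -0.25, that of Tfam -0.33 and that of Prkab1 -0.84. The sign was turned for Prkaa1 (-0.09), Prkaa2 (-0.08), Sirt1 (-0.13) and Sirt3 (0.12), and Prkag1 was at 1.01. None of the 10 passed in that fit either.

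Ordered by their mean over the 6 libraries per kilobase of the longest transcript, the 10 regulators were Sirt1 (24.7 ± 4.36), Stk11 (20.9 ± 2.34), Prkaa1 (17.8 ± 4.12), Prkab1 (6.72 ± 2.55), Tfam (4.60 ± 1.11), Prkaa2 (2.33 ± 1.34), Prkag1 (1.84 ± 1.04), Esrra (1.43 ± 1.06), Sirt3 (0.848 ± 0.632) and Ppargc1a (0.544 ± 0.474), all in CPM per kb with the SD over 6 libraries. Neighbours in this order differed by less than the sum of their SDs, except Prkaa1 and Prkab1, which were 11.1 CPM per kb apart. With the median length of the annotated transcripts in place of the longest, Stk11 came first and Tfam moved up to rank 3, since Tfam has a longest transcript of 4167 bases and a median of 779, while Ppargc1a and Sirt3 stayed last. The gap between Prkaa1 (17.9 CPM per kb) and Prkab1 (17.4 CPM per kb) closed on that scale.

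**Figure D3:**
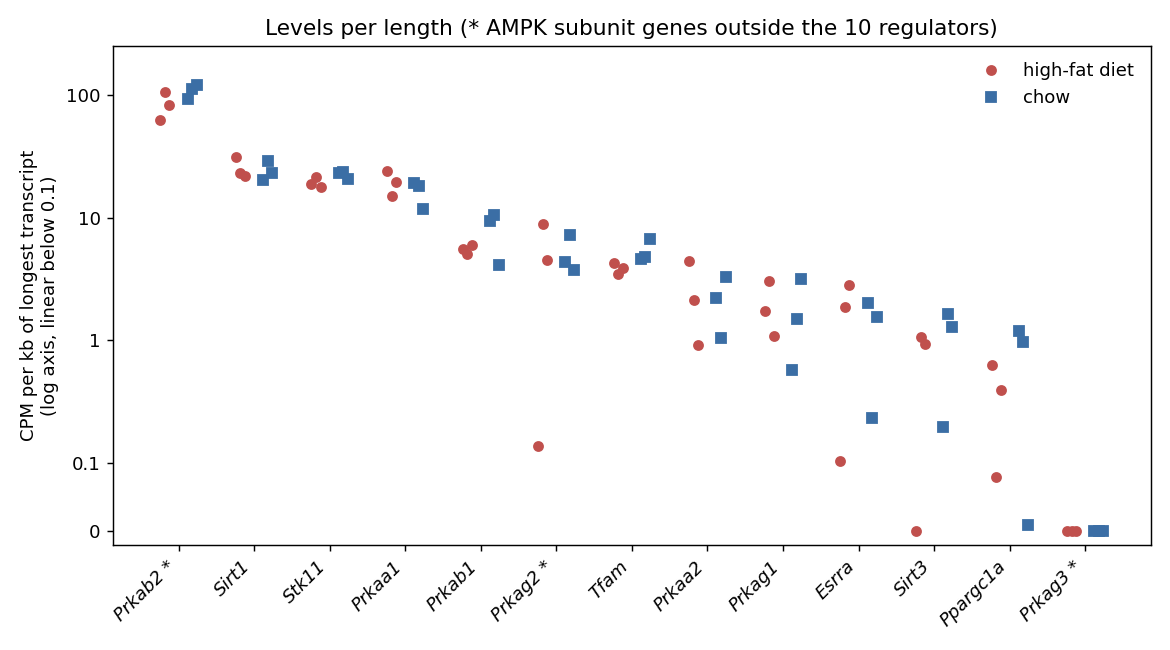
Level per kilobase of the longest annotated transcript (CPM per kb, log axis that is linear below 0.1) for the 10 regulators and the 3 other AMPK subunit genes (asterisks), with high-fat diet libraries as red circles on the left and the chow libraries as blue squares on the right. Prkab2 is highest at 61.8 to 119 CPM per kb, Sirt1, Stk11 and Prkaa1 follow, single libraries of Sirt3, Esrra, Ppargc1a and Prkag2 drop far below the others, and Prkag3 is at 0.

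How well a regulator could be compared followed its level. The dispersion, edgeR's measure of squared relative spread between libraries beyond counting error, was 0.0530 to 0.0679 for Sirt1, Stk11 and Prkaa1, 0.202 to 0.320 for Tfam, Prkab1 and Prkaa2, and 1.34 to 1.97 for Prkag1, Esrra, Ppargc1a and Sirt3. Among tested genes with a mean under 5 CPM, the median dispersion was 1.96 and 59.7% had at least 1 library without a read, whereas among those from 50 to 100 CPM the median was 0.0756 and 0% had such a library.

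**Figure D4:**
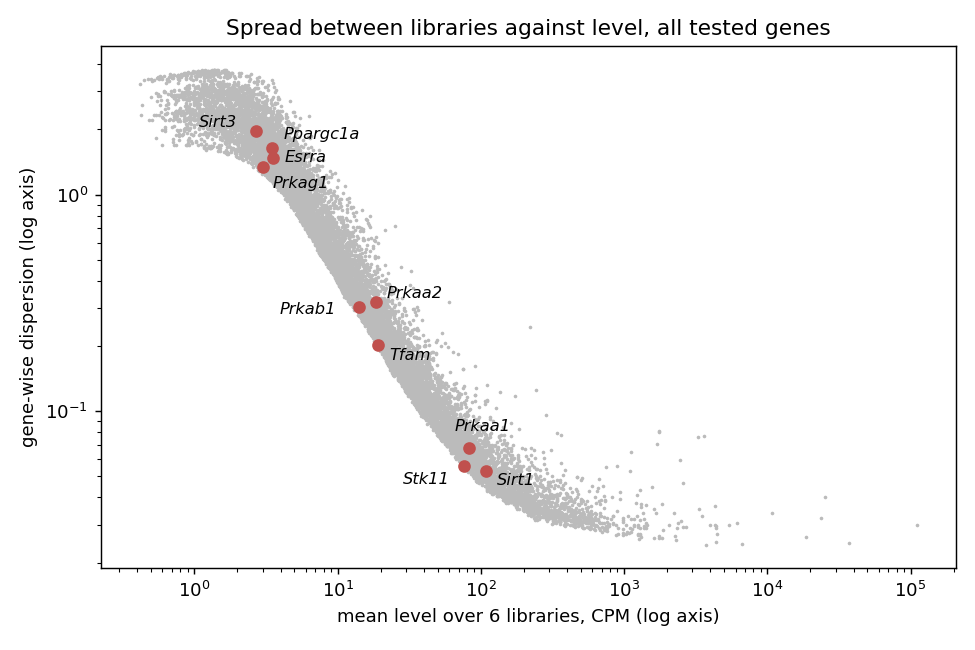
Dispersion between libraries against mean level over 6 libraries (CPM) for all 13202 tested genes (grey) and the 10 regulators (red, named), both axes logarithmic. The regulators lie within the grey band, with Sirt3, Ppargc1a, Esrra and Prkag1 at its upper left and Sirt1, Stk11 and Prkaa1 at its lower right.

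The wider pathway was read from 78 further genes in 8 lists by role, of which 67 had enough reads. In edgeR 0 of 67 passed over all genes. An unadjusted p under 0.05 was found for 4 (5.97%, against 7.65% of all genes), and the values of the diets did not overlap for 15 (22.4%, against 15.3% of all genes). Log2 fold changes were positive for 30 genes and negative for 37, with a median of -0.10. These lists were drawn up with earlier results of these data known, and the counts are a description.

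Among the coactivators, corepressors and nuclear factors, 0 of 13 tested genes passed and 4 of 13 did not overlap between the diets, against 15.3% of all tested genes. Nrip1 (chromosome 16, 76287403 to 76373827) encodes RIP140, a corepressor that binds nuclear receptors, ERRalpha included, and is known to restrain oxidative genes in mouse muscle. It was at 57.8, 58.2 and 51.2 CPM in the high-fat diet libraries and at 120, 111 and 114 CPM in the chow libraries. The 2 diets were far apart and each was tight, with means of 55.7 ± 3.94 CPM under high-fat feeding and 115 ± 4.64 CPM under chow (SD, n = 3 each). Its log2 fold change was -1.04 (SE 0.23, 95% interval -1.53 to -0.56), and its adjusted p of 0.102 in edgeR missed the threshold. Nrip1 passed with DESeq2 (adjusted p = 0.00502), with no filter on low counts (0.0324) and with limma-voom under sample quality weights (0.0476), and over all alternatives the adjusted p ran from 0.00502 to 0.424.

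Among genes of NAD+ synthesis and use, the cofactor side of the sirtuins, 0 of 11 tested genes passed. The diets did not overlap for 4 of 11, 2 higher and 2 lower under high-fat feeding, against 15.3% of all tested genes. Nampt (chromosome 12, 32820335 to 32853369), encoding the rate-limiting enzyme of NAD+ salvage, was at 59.2, 68.4 and 87.8 CPM under high-fat feeding and at 108, 136 and 151 CPM under chow. No high-fat diet library reached the lowest chow library. In log2 terms the difference was -0.87 (SE 0.24, 95% interval -1.38 to -0.36, edgeR adjusted p = 0.240). Under the 20 alternatives it ran from -1.04 to -0.63, with an adjusted p between 0.0681 and 0.686. Naprt, which makes NAD+ from nicotinic acid, was at 6.83, 3.26 and 6.85 CPM under high-fat feeding and at 0.753, 0.874 and 0 CPM under chow (log2 fold change 3.36, SE 1.78, edgeR adjusted p = 0.731). Naprt shares 11.8% of its exon bases with Eef1d on the same strand, so that its reads are uncertain.

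In the same libraries the 10 immediate early and heat-shock genes known to be induced by cell dissociation summed to 6606 to 10223 CPM under high-fat feeding and to 17388 to 24332 CPM under chow. All 10 had negative log2 fold changes, and 7 passed in edgeR, against 0.258% of all tested genes. The diets did not overlap for 10 of 10, against 15.3% of all tested genes. This list too was chosen with earlier results of these data known, and its counts are a description. The part of these 10 genes in the values of Nampt, Nrip1 and Tfam was not tested.

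Of the other AMPK subunits, 0 of 2 tested genes passed, namely Prkab2 and Prkag2. Of the kinases and partners upstream of AMPK, 0 of 9 passed. Cab39l, a scaffold gene of the LKB1 complex, was at 5.33, 16.2 and 11.1 CPM under high-fat feeding and at 0.753, 6.53 and 4.71 CPM under chow (log2 fold change 1.44, SE 1.00), and Map3k7, which encodes the kinase TAK1, had a log2 fold change of 0.48 (SE 0.40). Without both libraries that stood apart Map3k7 was at -0.17.

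Of the AMPK substrates, 0 of 8 passed. The acetyl-CoA carboxylase genes, whose products make malonyl-CoA, had log2 fold changes of opposite sign. Acacb, the isoform at mitochondria, was at 20.03, 17.1 and 40.5 CPM under high-fat feeding and at 49.9, 37.0 and 55.8 CPM under chow (log2 fold change -0.88, SE 0.40, edgeR adjusted p = 0.647). Acaca, the cytosolic isoform, was at 52.2, 43.2 and 48.1 CPM under high-fat feeding and at 24.7, 30.5 and 52.4 CPM under chow (log2 fold change 0.41, SE 0.36, edgeR adjusted p = 0.934). For both genes the groups overlapped, through high-fat diet library 3 for Acacb and chow library 3 for Acaca.

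Of the genes that transcribe and replicate mitochondrial DNA, 0 of 11 tested genes passed, and 3 of 11 did not overlap between the diets, against 15.3% of all tested genes. All 3 were lower under high-fat feeding, as were 1039 of the 2018 such genes in all. Polg, the catalytic subunit of the mitochondrial DNA polymerase, was at 67.8, 54.6 and 43.2 CPM under high-fat feeding and at 75.7, 71.2 and 77.1 CPM under chow (log2 fold change -0.44, SE 0.27, edgeR adjusted p = 0.814). Mgme1, an exonuclease gene of mitochondrial DNA upkeep, was at 0.130, 2.17 and 2.05 CPM under high-fat feeding and at 9.79, 4.84 and 14.1 CPM under chow (log2 fold change -2.72, SE 1.26, edgeR adjusted p = 0.652). Ssbp1, a single-strand binding protein gene, was the other, at 0.0640 to 2.37 CPM under high-fat feeding and 5.02 to 5.46 CPM under chow. It had only 26, 1 and 44 reads under high-fat feeding (log2 fold change -1.92, SE 1.56, edgeR adjusted p = 0.922). The median log2 fold change of this list was -0.44, against -0.01 over all tested genes.

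Of known targets of PGC-1alpha and ERRalpha, 0 of 8 tested genes passed. Log2 fold changes were positive for 7 of 8, as for 6536 of all 13202 tested genes. Without overlap were 0 of 8, against 15.3% of all tested genes. The median log2 fold change of the 8 was 0.19. Sod2, the mitochondrial superoxide dismutase gene, was at 105, 64.2 and 64.1 CPM under high-fat feeding and at 90.9, 58.3 and 22.4 CPM under chow, and its log2 fold change of 0.44 (SE 0.41) became -0.21 without both libraries that stood apart. Acadm, a dehydrogenase gene of fatty acid oxidation, was at 13.01, 12.3 and 21.0 CPM under high-fat feeding and at 11.9, 12.8 and 0.230 CPM under chow (log2 fold change 0.89, SE 0.97). Its value was 0.32 without chow library 3 and 0.44 without both libraries that stood apart. The muscle genes Cox6a2 and Ucp3 had 0 reads in all 6 libraries.

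**Figure D5:**
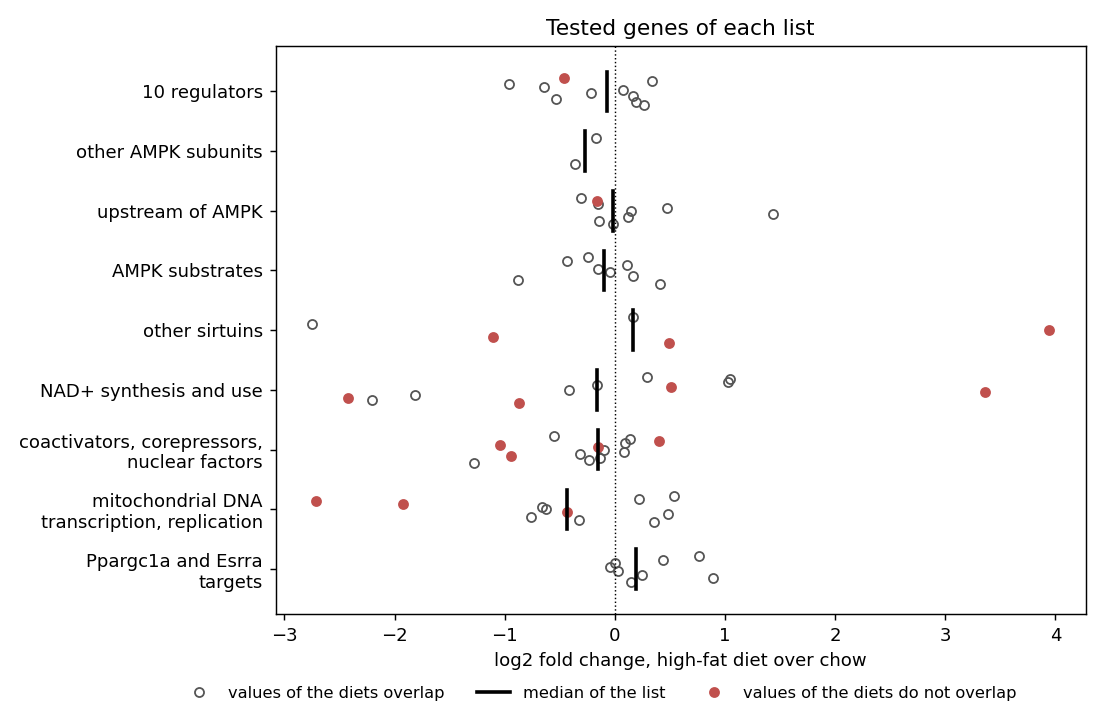
Log2 fold change (high-fat diet over chow) of every tested gene of the 10 regulators and of the 8 wider lists, 1 row per list, with filled red points where the 3 values of each diet do not overlap, open points where they do, and a black bar at the list's median. The medians lie between -0.44 (mitochondrial DNA transcription and replication) and 0.19 (targets of Ppargc1a and Esrra), and the widest values belong to genes of low counts such as Sirt5, Sirt6, Naprt and Mgme1.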

How the data were processed

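RNA-seq counts of 6 libraries (3 high-fat diet, 3 chow) were used as deposited: whole-number counts of reads per Entrez gene ID without normalization, per the file headers made from Bowtie2 alignments. The submitters' processing notes name Bowtie2, featureCounts, GRCm38 and mm10; versions, strand setting and treatment of multiply mapped reads are not given in the sources used here. Of 27179 IDs, 25275 were named from RefSeq (GRCm38.p6), 18 from GENCODE M21, and 1886 had no symbol. Transcript lengths and exon overlaps came from GENCODE M21.

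The count analysis used edgeR 4.0.16 (R 4.3.3): filterByExpr (minimum count 10), TMM scaling, and the quasi-likelihood F test with diet as the only factor, adjusted by Benjamini-Hochberg over all tested genes. Levels are CPM after TMM scaling. SE was computed as |log2 fold change| over the root of F. The test was also run on simulated counts, and the share of changes that it recovered is not reported here. Every pair of libraries of 1 diet differed by more than sampling noise. Alternatives, including DESeq2 1.42.0 and limma 3.58.1, are given at the end. All 10 regulators were named, and in each wider list the 2 genes with the smallest p, in each marker list the most abundant gene. One gene that this rule names is not reported here. Genes named beside these were picked with their values in view. They are other AMPK, sirtuin and coactivator genes, Ssbp1, Pax7, Itga7, Chrdl2, Ckm, Acta1, Tnnt3, Myh4, Cox6a2, Ucp3 and the rest of the fibro-adipogenic list. The members, lists and alternatives were chosen with earlier results of these data known.

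Of the other marker lists, endothelial genes summed to 219 to 332 CPM under high-fat feeding and 228 to 292 CPM under chow (most abundant Tek), fibro-adipogenic genes to 467 to 659 CPM under high-fat feeding and 358 to 506 CPM under chow (Dpt), immune genes to 7.61 to 25.2 CPM under high-fat feeding and 18.9 to 48.9 CPM under chow (Cd68, with Adgre1 and Cd3e at 0), mural genes to 34.5 to 77.4 CPM under high-fat feeding and 59.7 to 125 CPM under chow (Myh11), Schwann genes to 20.6 to 47.6 CPM under high-fat feeding and 16.3 to 58.2 CPM under chow (Mbp), and adipocyte genes to 0 to 0.0539 CPM under high-fat feeding and 0 to 7.79 CPM under chow (Adipoq, with Plin1 and Lep at 0). Of the immediate early and heat-shock genes Hspa1b was the most abundant.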

Additional observations from a re-analysis of the deposited data

How the results depend on the processing

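Under all 20 alternatives 0 of the 10 regulators passed. Of the wider lists 1 gene, Nrip1, passed with no filter, with DESeq2 and with limma-voom under sample quality weights, and 0 under the others. The count over all genes was 34 in the main test, 163 with no filter, 198 with DESeq2, 99 with limma-voom, 112 with sample quality weights and 1 without both libraries that stood apart, and it ran from 9 to 44 with 1 library left out, where 13845 to 14247 genes were tested. The lowest count was that without high-fat diet library 2 (9); it was 18 without high-fat diet library 1, 44 without 3, and 19, 10 and 10 without chow library 1, 2 or 3. The signs of Prkab1, Stk11, Tfam, Nampt and Nrip1 did not turn under any alternative. For Tfam, Nampt and Nrip1 the diets did not overlap, so leaving out libraries could not turn the sign. Signs turned with limma-voom for Prkaa2 (-0.00496) and Ppargc1a (0.23), with sample quality weights for Sirt1 (-0.0600), and without both libraries that stood apart for Prkaa1 (-0.0914), Prkaa2 (-0.0786), Sirt1 (-0.13), Sirt3 (0.12), Prkag2 (0.23), Map3k7 (-0.17) and Sod2 (-0.21). With 1 library left out the log2 fold change ran from -0.51 to 0.62 for Prkaa2, -0.30 to 0.92 for Prkag1, -0.10 to 0.23 for Sirt1, -0.35 to 0.90 for Esrra and -1.14 to 0.41 for Prkag2. The cause was not tested. The median of the 10 regulators ran from -0.30 to 0.00439. Same-numbered libraries did not deviate together (correlations 0.0245, 0.0346 and -0.0261 across genes, and high-fat diet library 3 correlated best with chow library 2), so the replicate number was not taken as a pairing; as a replicate block it gave 45 calls over all genes, 0 among the regulators and 0 among the wider lists. The differences in isoform share kept their sign with median transcript lengths and with no length scaling. With 1 library left out, an alternative chosen after seeing the data, they ran from -2.91 to 5.31 percentage points for Prkaa1, -2.43 to 0.50 for Prkab1 and -2.42 to 34.2 for Prkag1, and without both libraries that stood apart that for Prkaa1 was -0.50. The 4 regulators under 5 CPM had dispersions of 1.34 to 1.97 beyond counting error, and this spread between libraries limits their comparison.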
